A study of Homo sapiens with 16 samples.

Results

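Genes that describe how an epithelial cell holds to its neighbours and to its matrix were followed through 45 hours of HER2 kinase inhibition in MCF10A cells. They are the classical cadherins CDH1, CDH2 and CDH3, the transcriptional repressor SNAI2, the intermediate filament gene VIM, and the matrix genes FN1, SPARC and THBS1. All rows of the deposited intensity table that carry one of these symbols were taken, which gave 8 rows, 1 for each gene, of 20589 rows for 18190 symbols. MCF10A is a nontransformed human breast epithelial cell line, grown here in medium with insulin, epidermal growth factor and hydrocortisone. A small-molecule inhibitor specific for the HER2 kinase was added at 1 µM, and RNA was taken from parallel cultures every 3 hours from 0 to 45 hours. One Illumina human Ref8v2 array was hybridised for each of the 16 time points. The array of 0 hours is given as untreated by its source and treatment labels, although its title carries the same word for treated as the others, and the other 15 are from treated cells.

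The time points have no replicates, and no untreated cultures were followed in parallel. Fresh medium was given together with the inhibitor, so the effects of inhibitor, medium change and time in culture cannot be told apart. In the comparisons the arrays were grouped into 4 windows of 4 consecutive time points, or into 8 pairs of consecutive time points. Arrays of a window are not replicates of a condition, and their spread also holds the change within the window.

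Classical cadherins are calcium-dependent adhesion proteins whose tails bind catenins and, through them, the actin cytoskeleton. CDH1 (E-cadherin) holds epithelial sheets together, CDH3 (P-cadherin) is typical of basal and myoepithelial cells of the breast, and CDH2 (N-cadherin) is typical of neural and mesenchymal cells. In epithelial-mesenchymal transition, repressors such as SNAI2 (Slug) lower CDH1 and other junction genes, while CDH2, VIM and matrix proteins such as fibronectin rise. SNAI2 is also expressed in normal basal breast epithelium, and MCF10A cells have basal features.

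Median intensity over all rows lay between 210, at 45 hours, and 254, at 9 hours. A row was above background where its detection p-value against the negative control beads was under 0.05. By this measure the arrays were alike, with 10325 to 10889 rows an array (50.1% to 52.9%). Of 9 basal epithelial markers, KRT5, KRT17, KRT6A, ITGB4 and EGFR were above background on all 16 arrays, KRT14 on 1 and ITGA6 on none. TP63 and LAMB3, a row of combined probes, were not above it on all 16. Of 8 luminal markers, KRT8, KRT18, KRT19, KRT7, FOXA1 and MUC1 were above background on all 16 arrays, and ESR1 on none. GATA3 was not above it on all 16. Of 8 fibroblast markers, 7 were above background on no array (COL1A1, COL1A2, COL3A1, LUM, PDGFRA, PDGFRB and THY1), and DCN was above it on 5. The endothelial markers CDH5 and VWF and the T cell marker CD3E were above background on no array. PECAM1 and KDR, expressed in endothelium, were above it on 15 arrays each and TEK on 2, and the leukocyte markers CD14, PTPRC and LYZ on 12, 5 and 1. CD14 (adjusted p = 1.3e-07) and PECAM1 (adjusted p = 3e-04, both by limma) were called higher at 36 to 45 than at 0 to 9 hours. The summed normalized intensity of the leukocyte list was 267 to 284 on the arrays of 0 to 9 hours and 395 to 435 on those of 36 to 45 hours, and that of the endothelial list 274 to 313 and 348 to 385. Their part in the results below was not tested. With 16 arrays, precision is limited by their number.

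CDH3, SNAI2 and THBS1 were far above background at every time point, CDH1 and VIM were dim but passed the detection threshold on all 16 arrays, and CDH2, FN1 and SPARC were at background level. CDH2 passed on 1 array only, that of 0 hours, and FN1 and SPARC passed on none. A probe was tested where it passed on at least 3 arrays, which kept 5 of the 8 genes and 11957 of the 20589 rows. The order of brightness says nothing of the order of expression, since probes of different genes bind with different strength.

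Of CDH1, CDH2 and CDH3, only CDH3 (probe ILMN_12740) was measured well above background. Its intensity was lowest at 33 hours with 2624, had a median of 2995 over the 16 arrays, and was highest at 36 hours with 3827. In the background-corrected and normalized log2 values used from here on, the 4 windows had means of 11.53 ± 0.12, 11.41 ± 0.12, 11.28 ± 0.08 and 11.73 ± 0.08 (SD, n = 4 each). The window means thus went down over the first 33 hours, but neither step was called, and under median scaling the first was 0.06. All 4 arrays from 36 hours on stood higher than those of 24 to 33 hours. The step from 33 to 36 hours, 0.63 on the log2 scale, was the largest of the 15 steps between consecutive arrays, whose median size was 0.12.

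From 24 to 33 hours to 36 to 45 hours CDH3 rose by 0.45 on the log2 scale (SE 0.08, 95% interval 0.29 to 0.62), which is 1.37-fold (limma, Benjamini-Hochberg adjusted p = 0.00022). The 4 later arrays were all above the 4 earlier ones. CDH3 was the 1 gene of the 5 tested that was called (adjusted p under 0.05) in this comparison, where 38% of all tested probes were called and 19.3% were called higher. Its change was moderate among them, since 27.1% of tested probes moved further. Against the first window the last one differed by 0.20 (95% interval 0.03 to 0.36, adjusted p = 0.063 by limma), which did not pass the threshold of 0.05. No time point was as much as 1.7-fold above or below 0 hours for CDH3, nor for CDH1, while 43.7% of tested probes were so at 1 or more times.

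CDH1 (ILMN_29401) was close to background. Its intensity ranged from 225 at 24 hours to 319 at 3 hours, with a median of 253, which is 1.3 to 2.9 SD above the mean inferred for the negative controls. The log2 means of the windows were 6.81 ± 0.31, 6.29 ± 0.06, 6.49 ± 0.20 and 6.53 ± 0.14 (SD, n = 4 each). The 3-hour array was the brightest, the values then declined to 21 and 24 hours, and the later arrays lay between.

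From 0 to 9 hours to 12 to 21 hours CDH1 fell by 0.51 on the log2 scale (SE 0.14, 95% interval -0.82 to -0.21), and the windows did not overlap (limma, adjusted p = 0.013). Without the 3-hour array the difference was -0.38 and just missed the threshold (adjusted p = 0.05). With no background correction or with a larger offset it was smaller but still called, -0.22 at the least. The background mean inferred for the arrays was 193 to 199 in the first window and 188 to 192 in the next, and its part in the CDH1 difference was not tested. From 0 to 9 hours to 36 to 45 hours the difference was -0.28 (95% interval -0.58 to 0.03, adjusted p = 0.16 by limma). With the array of 9 hours left out this last difference was -0.39 and was called (adjusted p = 0.047).

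CDH2 (ILMN_28694) had intensities of 177 to 248 with a median of 194. The highest was at 0 hours, where the detection p-value was 0.0395, and the lowest at 30 hours. These values were 0.06 to 1.18 SD above the background mean and give an upper bound on the signal rather than a level. When all 20589 rows were tested, none of the 5 comparisons between windows or pairs was called for CDH2, SPARC or FN1, while the curve over time was called for CDH2 (limma, adjusted p = 0.042). The inferred background itself went down over the series, from 196 at 0 hours to 166 at 45 hours, and its part in that curve was not tested.

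SNAI2 (ILMN_29336), the repressor, changed most among the genes tested between the windows. Its intensity was highest at 9 hours with 1600, lowest at 18 hours with 654, and had a median of 825. The 4 arrays of 0 to 9 hours read 1357, 1499, 1329 and 1600. The 12 later arrays read between 654 and 1051, so none reached the level of the first 4. The fall came in a single interval, 9 to 12 hours, where the log2 value dropped by 1.16, against a median step of 0.21.

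The log2 means of SNAI2 were 10.39 ± 0.16, 9.21 ± 0.27, 9.33 ± 0.26 and 9.26 ± 0.06 (SD, n = 4 each). From the first window to the next it fell by 1.17 (SE 0.14, 95% interval -1.47 to -0.88), which is 2.26-fold lower (limma, adjusted p = 1.5e-05). SNAI2 and CDH1 were the 2 of 5 genes called in this comparison and both were lower, where 29.5% of all tested probes were called and 14.4% were called lower. Of the tested probes, 1.26% changed by more than SNAI2 did.

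The lower level of SNAI2 was still there at the end of the series. From 0 to 9 hours to 36 to 45 hours it fell by 1.13 (SE 0.14, 95% interval -1.42 to -0.83), which is 2.18-fold lower, without overlap (limma, adjusted p = 1.2e-05). It was the 1 gene of 5 called in this comparison, where 31.2% of tested probes were called and 15% were called lower. Relative to 0 hours, SNAI2 was at least 1.7-fold lower at 11 of the 15 later times, and 2.84-fold lower at 18 hours. By the same measure, 21.9% of tested probes were 1.7-fold lower at 1 or more times. These 2 calls for SNAI2 held under every alternative processing tried and with any time point left out.

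No gene of the 5 was called between 12 to 21 and 24 to 33 hours, and none had an unadjusted p under 0.05 (limma). Of all tested probes 0.0251% were called there. SNAI2 differed by 0.11 in that comparison (95% interval -0.18 to 0.41), and its value at 24 hours, 9.72, stood above those of 27, 30 and 33 hours, which were 9.15 to 9.22.

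**Figure D1:**
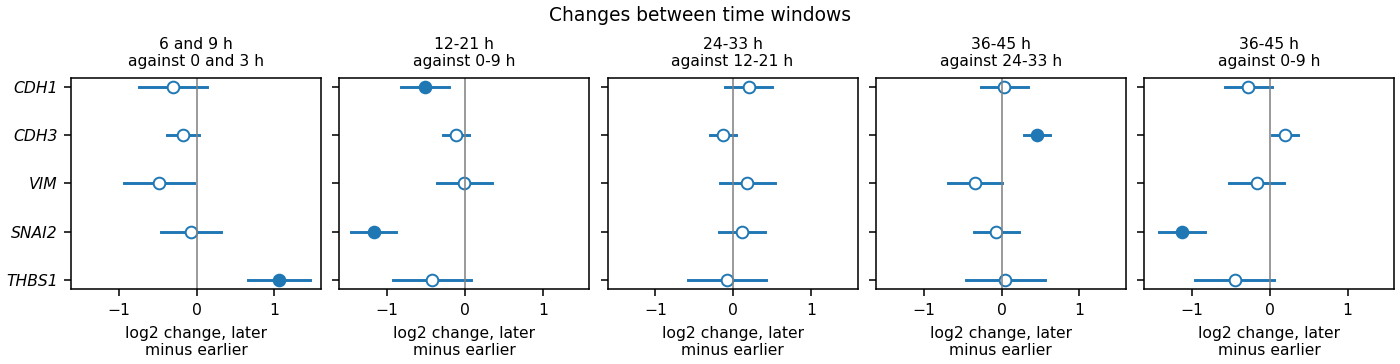
Difference in mean log2 intensity, later minus earlier (horizontal axis), for the 5 tested genes in 5 comparisons, with 95% intervals from limma. Filled points had a Benjamini-Hochberg adjusted p under 0.05 over all 11957 tested probes. SNAI2 was lower after 9 hours (by 1.17) and at the end (by 1.13), CDH1 was lower at 12 to 21 hours, CDH3 was higher from 36 hours on, and THBS1 was higher at 6 and 9 hours.

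VIM (ILMN_676), the intermediate filament protein of mesenchymal cells, was dim throughout. Its intensity was highest at 0 hours with 318, lowest at 39 hours with 224, and had a median of 271, or 1.20 to 2.95 SD above background. The log2 means were 6.63 ± 0.38, 6.62 ± 0.17, 6.80 ± 0.18 and 6.46 ± 0.19 (SD, n = 4 each). The windows overlapped, and VIM was called in no comparison. The largest differences were -0.48 from 0 and 3 hours to 6 and 9 hours (95% interval -0.93 to -0.03, adjusted p = 0.11 by limma) and -0.34 from 24 to 33 hours to 36 to 45 hours (95% interval -0.69 to 0.01, adjusted p = 0.12). The first was called without the array of 3 hours (-0.73, adjusted p = 0.033), and the other in a fit of the 8 arrays of those windows alone (adjusted p = 0.046). VIM was at least 1.7-fold below 0 hours at 2 of 15 times.

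The matrix genes FN1 and SPARC gave no signal that could be followed. FN1 (ILMN_4516, fibronectin) ranged from 160 to 201 with a median of 177, which is -0.51 to 0.41 SD from the background mean. SPARC (ILMN_1780), a collagen-binding glycoprotein, ranged from 131 to 182 with a median of 162, below the background mean on every array. Changes of transcript below this limit were not detectable here. The FN1 row combines several probes, so its detection p-value is not a rank against the control beads, but its intensity alone places it at background.

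THBS1 (ILMN_4882, thrombospondin 1) is a secreted matricellular glycoprotein that binds integrins, CD47 and CD36 and can activate latent TGF-beta. It moved early. Its intensity was 2975 at 0 hours, the lowest of the series, 4878 at 3 hours, 8002 at 6 hours, 7934 at 9 hours and 5491 at 12 hours. The later arrays lay between 3615 and 6258, and the median over all 16 was 4346. The peak was thus brief, and every later array was brighter than that of 0 hours.

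From 0 and 3 hours to 6 and 9 hours THBS1 rose by 1.06 on the log2 scale (SE 0.19, 95% interval 0.66 to 1.45, n = 2 each), which is 2.08-fold, from 11.95 ± 0.55 to 13.00 ± 0.003 (limma, adjusted p = 0.00058). It was the 1 gene of 5 called in this comparison, where 24.7% of tested probes were called and 13.2% were called higher, and 3.91% of probes moved further. Without the array of 9 hours the number of probes called went from 2956 to 1695. The difference lay between 0.66 and 1.44 when single arrays were left out, and each of those fits called it. Against 0 hours THBS1 reached 2.73-fold at 6 hours and was at least 1.7-fold higher at 5 of 15 times, while 23.8% of tested probes were 1.7-fold higher at 1 or more times.

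The array of 0 hours decides how the later course of THBS1 reads. From 0 to 9 hours to 12 to 21 hours the difference was -0.42 (95% interval -0.93 to 0.08, adjusted p = 0.21 by limma), and to 36 to 45 hours it was -0.45 (95% interval -0.96 to 0.05, adjusted p = 0.16). Without the array of 0 hours these differences were -0.73 (adjusted p = 0.0038) and -0.76 (adjusted p = 0.0022). On the first array of each later window, at 12, 24 and 36 hours, THBS1 was higher than on the other 3 arrays of that window. This pattern was looked for after the values were seen, and 2.94% of tested probes showed it. SNAI2 showed it in 2 of the 3 windows and CDH3 in 1.

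The promoter of THBS1 is shown because THBS1 was the member with the strongest early rise. The 250 bases before its transcription start in RefSeq (GRCh38.p14, chr15:39580829-39581078, plus strand) are printed 5′ to 3′, with motif matches in capitals.
THBS1: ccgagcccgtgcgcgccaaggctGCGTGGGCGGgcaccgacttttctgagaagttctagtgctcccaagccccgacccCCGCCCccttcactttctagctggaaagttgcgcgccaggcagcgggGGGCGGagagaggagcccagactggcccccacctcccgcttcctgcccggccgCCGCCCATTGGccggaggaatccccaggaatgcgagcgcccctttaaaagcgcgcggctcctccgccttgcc
The capitals mark 4 GC boxes (GGGCGG or its reverse complement CCGCCC, the site of SP1), which begin 223, 172, 125 and 72 bases before the start. They also mark 1 inverted CCAAT box (ATTGG, 66 bases before the start) and 1 match to the motif of the growth factor-induced factor EGR1 (GCGTGGGCG, 227 bases before the start), which overlaps the first GC box. Over windows of the same length and on both strands, 42.6% of 35116 promoters held a GC box, 32% a CCAAT box and 0.72% the EGR1 motif. The E-box bound by Snail-family repressors (CACCTG or CAGGTG) was in 17.5% of promoters and in none of the 6 promoter windows listed for CDH2, FN1, SPARC, THBS1 and VIM. These are matches of letters, and no binding was measured. CDH1, CDH3 and SNAI2 were not among the promoters listed.

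Over the whole series, limma's test of a smooth curve of time called 3 of the 5 genes, SNAI2 (adjusted p = 4e-04), CDH1 (adjusted p = 0.027) and CDH3 (adjusted p = 0.032). It did not call THBS1 (adjusted p = 0.16) or VIM (adjusted p = 0.35). Of all tested probes 54.7% were called by this test. The curve had 3 degrees of freedom, while a curve with 5 called THBS1 (adjusted p = 0.0013), and so did the curve with 3 without the array of 0 hours (adjusted p = 0.01). The CDH3 call was lost when any of 7 time points was left out, and the CDH1 call when that of 3, 21 or 24 hours was. With all time points kept and other processing or curves, CDH3 was called in 8 of 11 settings (adjusted p up to 0.68 by limma). CDH1 was called in 7 of 10 such settings (adjusted p up to 0.51 by limma).

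The probes whose courses ran closest to each gene were ranked by Pearson's r over the 16 arrays, as a description with no test. Successive arrays are not independent, and the best of 11957 probes will correlate highly for almost any course. For SNAI2 they were GPNMB (r = 0.94), ARF4 (r = 0.93) and FRMD6 (r = 0.93). For THBS1 they were TGFA, a ligand of the EGF receptor (r = 0.92), GLIPR1 (r = 0.91) and the caveolin gene CAV2 (r = 0.90). For CDH3 they were the glycogen phosphorylase gene PYGB (r = 0.98), LTBP4, which binds latent TGF-beta (r = 0.92), and PLXNA3, a semaphorin receptor (r = 0.91). For CDH1 they were FBXL12, RAB2B and AFF4 (r = 0.90, 0.87 and 0.86), and for VIM they were NKTR, LUC7L2 and NFYB (r = 0.81, 0.79 and 0.77).

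**Figure D2:**
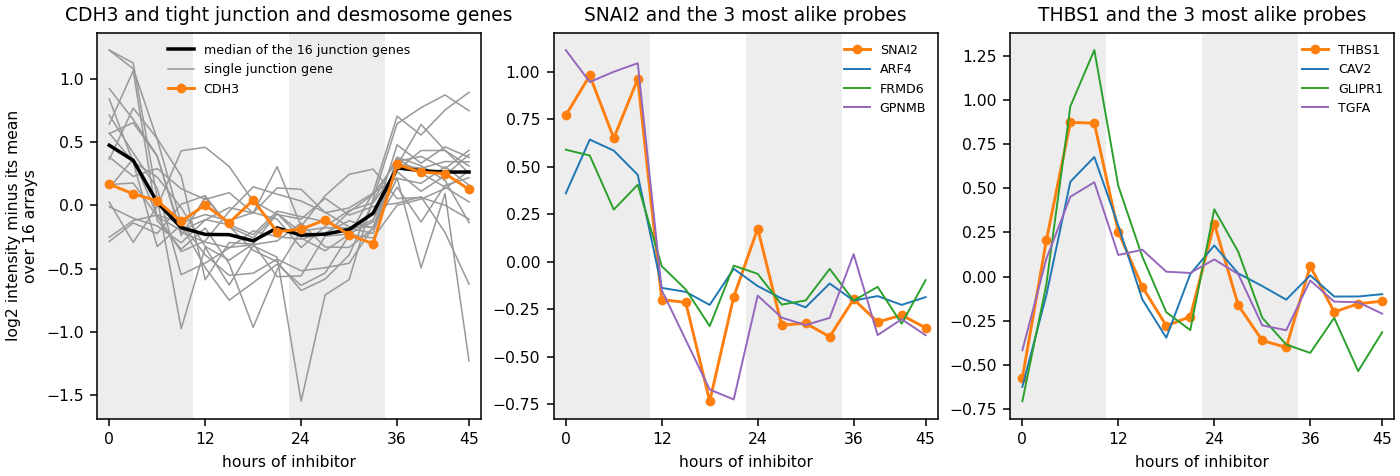
Log2 intensity minus its mean over 16 arrays (vertical axis) against hours of inhibitor (horizontal axis), with grey bands for the windows of 0 to 9 and 24 to 33 hours. The left panel shows CDH3 with 16 tight junction and desmosome genes and their median, and the others show SNAI2 and THBS1 with the 3 probes most like each. CDH3 and the median of the junction genes both stepped up between 33 and 36 hours, and the SNAI2 neighbours shared its drop between 9 and 12 hours, having been chosen for that likeness.

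The other genes of the same pathways were taken from lists chosen by function, with the brightest row for a gene with several. Their counts are to be read against the shares of all tested probes called higher and lower, which were 13.2% and 11.5% from 0 and 3 hours to 6 and 9 hours, 15.1% and 14.4% from 0 to 9 hours to 12 to 21 hours, 19.3% and 18.7% from 24 to 33 hours to 36 to 45 hours, and 16.2% and 15% between the ends of the series. Of 9 adherens junction partners on the array 7 were tested. From 0 to 9 hours to 12 to 21 hours 1 was higher and 2 were lower, and from 24 to 33 hours to 36 to 45 hours 2 were higher and 1 was lower, so that 3 of 7 were called each time, where 29.5% and 38% of all tested probes were. JUP (plakoglobin), which links cadherins to the cytoskeleton in both adherens junctions and desmosomes, had the largest of these changes. It had log2 means of 13.17 ± 0.31, 12.16 ± 0.21, 12.08 ± 0.11 and 13.08 ± 0.14 (SD, n = 4 each). It fell by 1.01 (adjusted p = 2.7e-05) and then rose by 1.00 (adjusted p = 1.1e-05, both by limma). CTNNA1 (alpha-catenin) rose by 0.35 in the later step (adjusted p = 0.001), and by 0.17 under median scaling, where it was not called (adjusted p = 0.064). Between the ends of the series 1 of the 7 was called, NECTIN1 (PVRL1 on the array), which fell by 0.90 (adjusted p = 3.4e-05). CTNND1 was above background on no array, and CTNNB1, a row of combined probes, was not tested. JUP and CTNNA1, like the other genes of these lists that changed between intermediate windows, were picked to be named after their values were seen.

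Of 19 tight junction and desmosome genes on the array 16 were tested. From 0 and 3 hours to 6 and 9 hours 9 of the 16 fell and none rose (median -0.42, against -0.01 for all tested probes), where 11.5% of all probes were called lower. In 12 to 21 hours against 0 to 9 hours 8 of 16 fell and none rose (median -0.57, against -0.00065 for all). From 24 to 33 hours to 36 to 45 hours 11 of 16 rose and none fell (median 0.48, against -0.0022 for all). The other 5 were not called there, and PKP3 (-0.39), DSG2 (-0.15) and EPCAM (-0.11) had differences below 0. TJP3, a scaffold protein of tight junctions, fell by 1.64 early (adjusted p = 0.00074) and rose by 1.46 late (adjusted p = 0.0049). The desmosomal cadherin DSC2 fell by 0.96 early (adjusted p = 0.00033) and rose by 0.62 late (adjusted p = 0.019, all by limma). Between the ends of the series 3 of 16 rose and 2 fell, with CLDN1 (claudin 1) higher by 0.55 (adjusted p = 0.042), PKP2 (plakophilin 2) higher by 0.53 (adjusted p = 0.00077) and PKP3 lower by 0.61 (adjusted p = 0.04). Under median scaling the counts were 6 lower early, 6 lower and 2 higher at 12 to 21 hours, and 9 higher and 1 lower late. The calls of CLDN1 and PKP3 between the ends were lost under cyclic loess (adjusted p = 0.057 and 0.058), and that of PKP3 also under median scaling and without the array of 0 hours.

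Of the 20 other cadherins on the array 8 were tested, and 9 of the rest were above background on no array. CDH13, a cadherin anchored in the membrane by a lipid, was 1.78-fold higher at 36 to 45 hours than at 0 to 9 hours (adjusted p = 0.0031). CDH16 was also called higher and CDH15 lower, and these probes were above background on only 10 and 5 of the 16 arrays. CDH4 (R-cadherin) had log2 means of 7.20 ± 0.59, 9.09 ± 0.26, 9.03 ± 0.12 and 7.72 ± 0.40 (SD, n = 4 each). It rose 3.72-fold from the first window to the next (adjusted p = 2.7e-05) and fell 2.48-fold from the third to the last (adjusted p = 0.00035, all by limma). CDH11 was called in the same directions in both comparisons (adjusted p = 0.01 and 5e-04), with 11 of 16 arrays above background. CDH9, above background on all 16 arrays, went the other way. It fell by 0.57 (adjusted p = 0.00099) and then rose by 0.52 (adjusted p = 0.0012, both by limma). Of the 8 tested, 2 were called higher and 1 lower in the first of these comparisons, and 1 higher and 2 lower in the other.

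Of 11 other transcription factors of epithelial-mesenchymal transition on the array 7 were tested. The repressors ZEB1 and ZEB2 (TCF8 and ZFHX1B on the array) were above background on no array. SNAI1, SNAI3, TWIST1, FOXC2 and TCF4 were called in no comparison between windows or pairs. TWIST1 was above background on all 16 arrays, with log2 means of 12.02 ± 0.64 at 0 to 9 hours and 12.07 ± 0.13 at 36 to 45 hours (SD, n = 4 each). KLF8 was the 1 of 7 called between the ends of the series, higher (adjusted p = 0.0068 by limma), and it was above background on 4 of the 16 arrays. TCF3 was higher by 0.46 at 12 to 21 hours than at 0 to 9 hours (adjusted p = 0.04).

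Of 10 regulators of epithelial identity 8 were tested. From 0 and 3 hours to 6 and 9 hours 3 of the 8 fell and none rose (1 without the array of 0 hours), and from 24 to 33 hours to 36 to 45 hours 5 rose and none fell. ELF3, an epithelial ETS factor, was 4.49-fold higher at 36 to 45 hours than at 0 to 9 hours (log2 difference 2.17, SE 0.49, adjusted p = 0.0028 by limma). Its log2 means were 9.36 ± 1.47, 9.30 ± 0.13, 9.00 ± 0.76 and 11.53 ± 0.20 (SD, n = 4 each). OVOL2, a repressor of mesenchymal genes, was higher by 0.47 (adjusted p = 0.0026) and GRHL1 lower by 0.46 (adjusted p = 0.0021).

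Of 26 other matrix and mesenchymal genes 15 were tested, and the fibrillar collagens COL1A1, COL1A2 and COL3A1, with POSTN, FBN1, LUM and MMP2, were above background on no array. Between the ends of the series 4 of 15 rose and 2 fell, where 16.2% and 15% of all tested probes did. Under median scaling 6 rose and none fell, with the calls of TGFBI and FAP lost. FSTL1, a secreted glycoprotein related to SPARC, rose by 0.68 (adjusted p = 0.0065), COL5A2 was called higher with 6 arrays above background, and ACTA2 (smooth muscle actin) rose by 0.56 (adjusted p = 8.6e-05, by limma). The basement membrane collagen gene COL4A1 was higher by 0.83 at 6 and 9 hours than at 0 and 3 hours (adjusted p = 0.00063), where FSTL1 was higher by 0.91 (adjusted p = 3e-05). In that comparison 3 of the 15 rose and 2 fell, FAP and CALD1. The median of the 15 was -0.02, against -0.01 for all tested probes. From 0 to 9 hours to 12 to 21 hours 3 of the 15 rose and 5 fell.

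Of 18 other matricellular genes and matrix receptors 13 were tested. From 0 to 9 hours to 12 to 21 hours 2 of 13 rose and 6 fell, and from 24 to 33 hours to 36 to 45 hours 7 rose and 1 fell. The 2 that rose in the first of these are near the 15.1% of all tested probes. THBS3, a relative of THBS1, was 2.24-fold higher at 36 to 45 hours than at 0 to 9 hours (adjusted p = 5.4e-06). THBS2, THBS4, COMP and SPARCL1 were above background on no array. SMOC2, of the SPARC family, was higher by 0.64 (adjusted p = 0.005) and the integrin gene ITGB5 by 0.60 (adjusted p = 0.00014, by limma). The integrin gene ITGB6 rose 2.09-fold at 6 and 9 hours (adjusted p = 0.0024).

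Of 17 genes of the TGF-beta pathway, which induces SNAI2 and matrix genes in many epithelia, 12 were tested. None was called from 0 and 3 hours to 6 and 9 hours, and between the ends 3 of 12 rose. TGFBR3 (betaglycan), a co-receptor, was 3.74-fold higher (adjusted p = 4.6e-06), LTBP2 1.86-fold higher (adjusted p = 2.1e-06) and LTBP4 1.65-fold higher (adjusted p = 0.00097, all by limma). SMAD2, SMAD3, SMAD4 and SMAD7 were above background on all 16 arrays and were called in no comparison between windows or pairs.

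**Figure D3:**
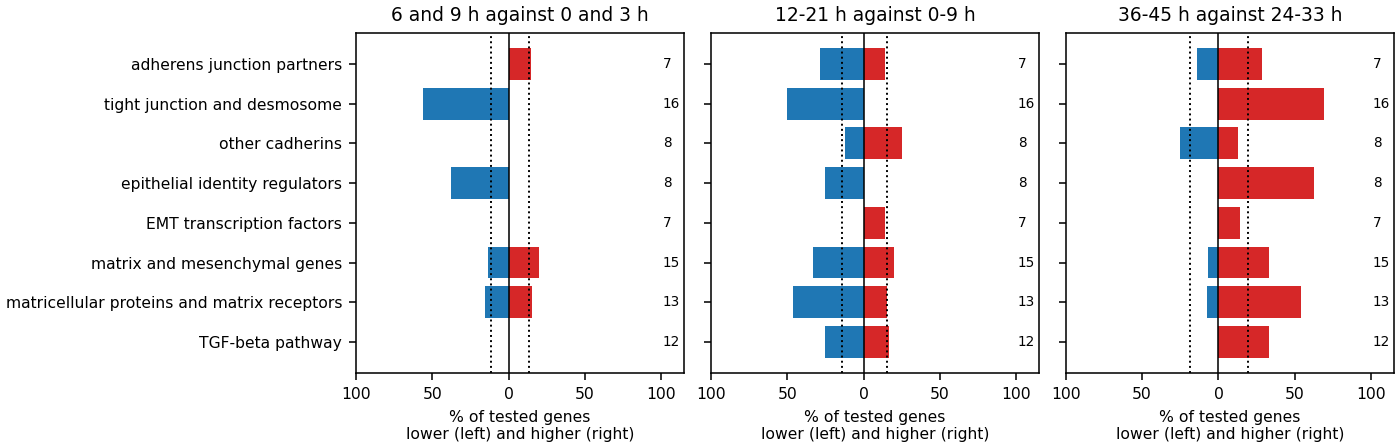
Percent of the tested genes of each of 8 lists (number tested at the right of each row) called lower (left, blue) and higher (right, red) by limma in 3 comparisons, with dotted lines at the percent of all tested probes called in each direction. Tight junction and desmosome genes were called lower in 9 of 16 and 8 of 16 cases in the earlier comparisons and higher in 11 of 16 in the last.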

How the data were processed

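Expression was measured in 16 MCF10A cultures with Illumina human Ref8v2 arrays, 1 for each time point. The authors deposited linear intensity values that were not normalized between arrays. They also deposited a detection p-value per row and array. The methods name quality control and quantile normalization, which the deposited values do not carry, and the summary software is not given in the sources used here. In 19092 rows every detection p-value is a whole multiple (within 0.001) of 1 in 708, as for a single probe, and 1497 rows combine probes. Of 393 combined rows over 5 background SD on all 16 arrays, 57 failed detection on 3 or more arrays, so their detection p-values were read with care.

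Intensities were corrected with normexp, with the background inferred from the detection p-values of single-probe rows and an offset of 16, then quantile normalized and log2 transformed with limma 3.58.1 in R 4.3.3. The offset understates the change of dim probes. A row was tested where 3 or more arrays gave a detection p under 0.05. One fit used 4 windows of 4 time points (12 residual degrees of freedom), another 8 pairs (8 residual degrees of freedom), and the time course a natural cubic spline with 3 degrees of freedom, each with a prior variance that follows intensity. P-values were adjusted by Benjamini-Hochberg over the 11957 tested probes, and those under 0.05 were called. Scripts were tested on simulated data. Figures were drawn with matplotlib 3.10.9 in Python 3.11.15. The build of the array annotation is not given in the sources used here. Promoters are from a RefSeq table, where 5 of the 8 genes were listed.

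The 8 genes and the gene lists were chosen with earlier results of these data known. From each list up to 3 genes were named, those with the largest called change between 0 to 9 and 36 to 45 hours, and for each tested gene the 3 probes most correlated with it. Some genes of the lists are not reported here. The alternatives were cyclic loess, median scaling, an offset of 50, uncorrected background, other filters on dim probes, no intensity trend, other curves, contrasts or arrays in the fit, and leaving out each time point. Testing combined rows by their intensity, and recounting the lists under other scalings and without 0 hours, were added after seeing the data. A chip as a block was planned and not run, since no chip is named in the labels or headers.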

Additional observations from a re-analysis of the deposited data

How the results depend on the processing

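The calls of SNAI2 (12 to 21 and 36 to 45 against 0 to 9 hours), CDH3 (36 to 45 against 24 to 33 hours) and THBS1 (6 and 9 against 0 and 3 hours) held under every alternative run and without any time point. With all time points kept, the CDH3 difference lay between 0.27 and the 0.45 of the main fit (adjusted p at most 0.019 by limma). Outside the runs that left out a time point, single-gene results kept direction and side of the threshold in 287 cases, gained a call in 3, lost it in 6 and turned sign in 7. The number of genes called moved to 2 under median scaling for 36 to 45 against 0 to 9 hours (CDH3 added, 0.30, adjusted p = 0.012 by limma), and to 1 with a detection p under 0.01 for 12 to 21 against 0 to 9 hours, because CDH1 and VIM then failed the filter. It moved to 1 with a straight line for the time course, and to 2 with the arrays compared only for 36 to 45 against 24 to 33 hours (VIM added). Uncalled differences turned sign under median scaling for CDH3 (0.0612) and VIM (0.0356) at 12 to 21 against 0 to 9 hours, THBS1 at 24 to 33 against 12 to 21 hours (0.0389) and 36 to 45 against 24 to 33 hours (-0.18), and SNAI2 at 6 and 9 against 0 and 3 hours (0.0271). So did VIM under cyclic loess at 12 to 21 against 0 to 9 hours (0.0085), and THBS1 at 42 and 45 against 0 and 3 hours (0.0378). The causes were not tested.

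Leaving out 1 time point gave 1 to 4 genes called for the time course, 1 to 3 for 36 to 45 and for 12 to 21 against 0 to 9 hours, 1 to 2 for 6 and 9 against 0 and 3 hours, and 0 and 1 throughout for 24 to 33 against 12 to 21 and 36 to 45 against 24 to 33 hours. Of the uncalled differences that turned sign, VIM ranged from -0.16 to 0.15 (12 to 21 against 0 to 9 hours), SNAI2 from -0.23 to 0.0862 (6 and 9 against 0 and 3 hours), from -0.0198 to 0.17 (24 to 33 against 12 to 21 hours) and from -0.12 to 0.0647 (36 to 45 against 24 to 33 hours). THBS1 ranged from -0.23 to 0.0320 and from -0.0345 to 0.20 in the last 2 comparisons, and CDH1 from -0.05675 to 0.0918 in the last.

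Over all tested probes the counts moved by over 1.5 times with a straight line (1950 against 6535), with the arrays compared only (884 against 2956 for 6 and 9 against 0 and 3 hours, 2178 against 3530 for 12 to 21 and 2474 against 3729 for 36 to 45 against 0 to 9 hours), and without the step from 21 to 24 hours (1617 against 3729). Without the array of 9 hours 1695 were called for 6 and 9 against 0 and 3 hours. For 24 to 33 against 12 to 21 hours they were 11 under median scaling, 12 with the arrays compared only, 2 under cyclic loess or with detection on all 16 arrays, 1 without the intensity trend, and 1 to 6 when a time point was left out, against 3. Median scaling moved the split of higher to lower calls to 2794 and 1029 for 36 to 45 against 0 to 9 hours (from 1932 and 1797), to 2811 and 1030 for 12 to 21 against 0 to 9 hours (from 1808 and 1722), to 1719 and 2935 for 36 to 45 against 24 to 33 hours (from 2310 and 2234), to 1794 and 1007 for 6 and 9 against 0 and 3 hours (from 1584 and 1372), and to 8 and 3 for 24 to 33 against 12 to 21 hours (from 0 and 3). Of 129 calls among the listed genes, 104 were kept under median scaling, 123 under cyclic loess, 128 with no background correction and 108 without the array of 0 hours, and none turned sign. No paired analysis was possible because each time point has 1 array and no replicate numbers. Signal over background limits CDH1 and VIM, and leaves CDH2, FN1 and SPARC unmeasured.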
